A study of Mus musculus with 18 samples.

Results

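Plasmacytoid dendritic cells (pDCs) kept in culture with the vehicle for 16 h were compared with pDCs given the same vehicle and harvested at 0 h. The comparison uses 6 of the 18 libraries of the series, chosen by their treatment and time labels alone, with 3 libraries at each time. All 54532 genes of the count table entered, 28361 had at least 1 count in the series, and 14876 passed the filter on low counts and were tested. The mice were wild-type C57BL/6, and their bone marrow had been grown for 7 days in 80 ng/mL Flt3 ligand. Cells carrying B220, a surface form of CD45, were then pulled out with beads, at a purity given as routinely 80%, and placed in 96-well plates. The vehicle is named LAL, for Limulus amebocyte lysate, and the labels do not say whether the lysate itself or reagent water was meant. Untreated cells at 0 h, vehicle at 6 h and imiquimod at 16 h (2.5 µg/mL, an agonist of the RNA sensor TLR7) are each given beside this comparison as 3 libraries. Every group carries the same genotype, strain and Flt3 ligand culture. Time in the plate and time with the vehicle differ together between 0 and 16 h, so they cannot be told apart. The labels do not say whether libraries of a group came from separate mice or cultures, so the p-values reflect the spread among libraries alone, and that spread may be technical.

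pDCs are dendritic cells that carry the endosomal receptors TLR7 and TLR9 and are known for making type I interferon. Flt3 ligand drives their formation from dividing bone marrow progenitors, and mature pDCs divide little. Dendritic cells can also mature without a microbial stimulus, a change in which the chemokine receptor CCR7, the actin-bundling protein fascin and co-stimulatory proteins increase.

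Total counts ran from 10609741 to 13447018 over the 18 libraries, a ratio of 1.27. The 3 libraries at 0 h held 11423956 to 11926957 counts and the 3 at 16 h held 10609741 to 11237396. In a principal component analysis of the 12 vehicle and untreated libraries, the first component held 68.8% of the variance and ordered the vehicle libraries by time. The share of counts from rRNA, mitochondrial rRNA and rRNA-like genes was 10.8% to 11.35% at 0 h and 16.86% to 17.02% at 16 h, and its part in the results below was tested only by leaving those genes out. That gave 4313 genes higher and 4354 lower. Vehicle and untreated cells at 0 h differed in 0 genes in either direction by edgeR's quasi-likelihood test and in 0 by DESeq2, with 708 genes at an unadjusted p under 0.05. This is 0% of the 14876 genes in each direction.

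Between 0 and 16 h in vehicle, 4222 genes rose (28.4% of those tested) and 4469 fell (30%). At least a 2-fold change was found in 832 higher genes (5.59%) and 926 lower ones (6.22%). Calls rest on edgeR's quasi-likelihood test, with p adjusted by Benjamini-Hochberg over all genes and a threshold of 0.05. Levels are in CPM, read counts divided by the library size after TMM scaling, fold changes are log2 of 16 h over 0 h, and SE is the standard error of that fold change. A rise or fall "by" an amount is on this log2 scale. The 3 libraries at 0 h and the 3 at 16 h did not overlap in 9458 of the 14876 genes tested. Genes picked by rank of fold change or CPM change had to show no overlap, so for them it adds no support. The median log2 fold change over all genes tested was 0.00. The earlier interval, 0 to 6 h, held 3868 genes higher (26%) and 4003 lower (26.9%), and the later one, 6 to 16 h, held 2176 higher (14.6%) and 2294 lower (15.4%). Scaled by library totals, the later interval held 1694 higher and 2979 lower. DESeq2 gave 1881 and 1686 for it, so the larger direction depended on the method. A fit of only the groups compared gave 1826 and 1911, and leaving out vehicle 6 h replicate 1 gave 2360 and 2502. Over the other scalings, filters, fits and tools the earlier interval held 3303 to 3945 higher and 3624 to 4148 lower. These intervals share libraries with each other and with the 0 to 16 h comparison. In each, the counts below are read against these shares. The vehicle 6 h libraries differed more among themselves than those of the other vehicle times, with a chi-square per degree of freedom between replicates of 3.91 to 9.6 against 1.34 to 1.84 at 0 h and 1.42 to 1.59 at 16 h. Their rRNA-like share was 15.5% to 16.6% and their share of mitochondrial mRNA 0.292% to 0.507%. List counts at 6 h were therefore also taken with each of these libraries left out, an alternative added after the data were seen. Of the 49 list medians from 0 to 16 h, 19 moved by over 1.5 times under some alternative, 17 of which lay within 0.15 of 0. Because the cells were sequenced in bulk, fewer cells of a type and less RNA per cell cannot be told apart.

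**Figure D1:**
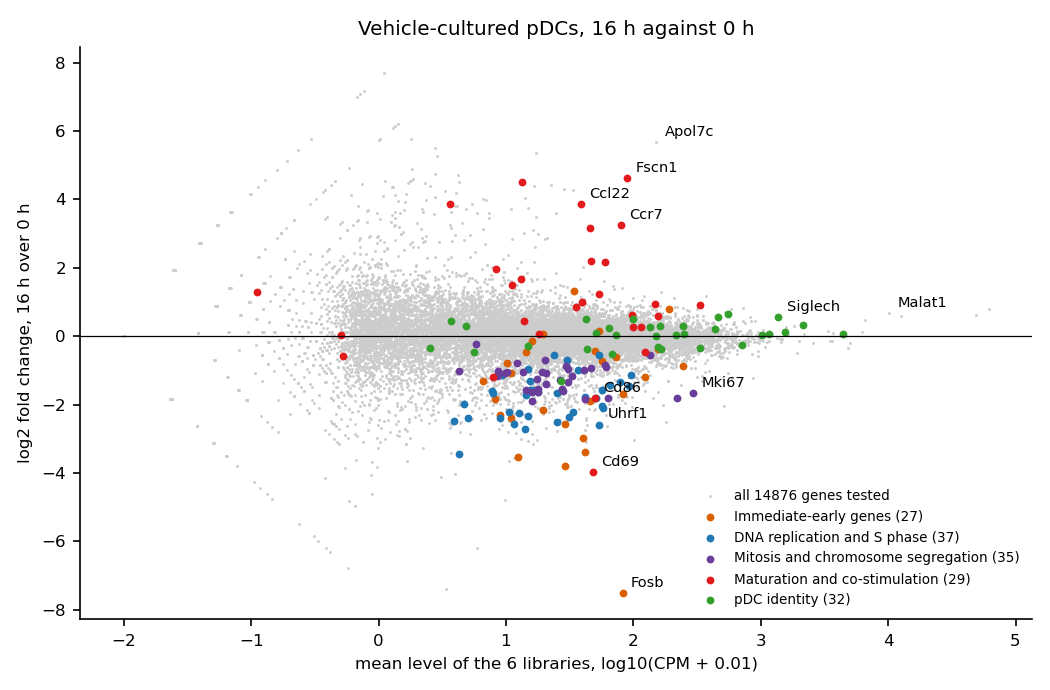
Each point is a gene tested, placed by its mean level over the 6 libraries (horizontal, log10 of CPM + 0.01) and its log2 fold change from 0 to 16 h (vertical), with 5 gene lists coloured. Replication and mitosis genes lie below 0, pDC identity genes lie near 0, and several maturation genes, Fscn1 at 4.63 among them, lie far above it.

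Among the gene lists, those for DNA replication, mitosis and histones showed the most uniform change. The lists were chosen with earlier results of these data known, and over all genes tested 30% fell. All 37 genes listed for DNA replication and S phase fell, with a median of -1.73, and 32 of them fell at least 2-fold. Of 35 mitosis genes 34 fell and 0 rose (median -1.12). Of 24 listed histone genes of the replication-dependent clusters 23 were tested and all 23 of those fell at least 2-fold (median -1.97). These histones package newly copied DNA and are made mainly in S phase.

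Among the S phase genes, Uhrf1, which helps copy DNA methylation onto the new strand, stood at 92.2, 92.6 and 93.1 CPM at 0 h and at 14.1, 15.96 and 16.1 CPM at 16 h. The groups lay far apart, with all 3 libraries at 16 h below all 3 at 0 h, and the fold change was -2.59 (SE 0.062, edgeR adjusted p = 7.97e-51). Mcm5, a subunit of the replicative helicase, fell from 93.2, 93.9 and 91.5 CPM to 20.6, 19.2 and 25.8 CPM, a fold change of -2.09. Orc1, of the complex that marks replication origins, fell by 3.43 (SE 0.23), and Mcm10 and Cdc6, which act in starting replication, fell by 2.72 and 2.56. Cdca7, a target of Myc and E2F, fell by 2.99.

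Mitosis genes did not share this time course. Top2a, the topoisomerase that untangles chromosomes, stood at 345, 343 and 332 CPM at 0 h, at 352, 334 and 344 CPM at 6 h and at 90.6, 98.7 and 102 CPM at 16 h. Its libraries at 0 and 6 h overlapped (log2 fold change 0.02, SE 0.034, edgeR adjusted p = 0.739), and those at 16 h lay below both. Plk1, a kinase that drives mitosis, was 13.9, 15.8 and 16.4 CPM at 0 h, 26.1, 24.5 and 28.6 CPM at 6 h and 8.91, 9.49 and 8.27 CPM at 16 h. It thus rose by 0.78 (SE 0.091) in the first interval and fell by 1.57 (SE 0.10) in the second. At 6 h 19 of the 35 mitosis genes were higher than at 0 h and 1 was lower (median 0.25; 18 higher and 0 or 1 lower with any 6 h library left out), whereas all 37 S phase genes were lower by then (median -0.98). Histone genes lay between, with 15 of 23 lower at 6 h, 1 higher and 7 not called (median -0.30). From 6 to 16 h 34 of the mitosis genes fell (median -1.54), as did 32 of the S phase genes (median -0.86) and all 23 histone genes tested (median -1.33).

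Other markers of division were lower at 16 h as well. Mki67, which encodes the proliferation antigen Ki-67, fell from 445, 441 and 459.8 CPM to 139, 139.9 and 144 CPM. That is a fold change of -1.67 (SE 0.039), and the groups did not overlap. Nuf2, a kinetochore subunit, fell by 1.89, Ccna2, the cyclin A2 gene, by 1.83, Kif11, a spindle motor, by 1.8, and Cdk1, the mitotic kinase, by 1.63. Hist1h1b, a linker histone gene, fell from 101, 98.6 and 104 CPM to 20.4, 18.98 and 21.8 CPM (-2.31, SE 0.086). Core histone genes resemble each other closely, and 36.2% of the 75-base windows of Hist1h3c also occur in other genes, so counts of single copies are uncertain.

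**Figure D2:**
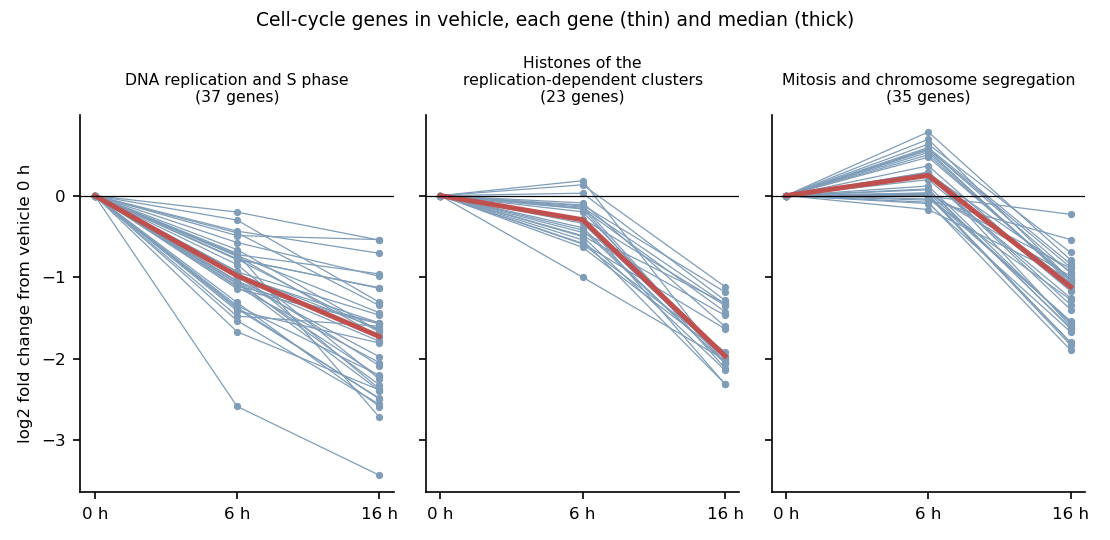
Log2 fold change from vehicle 0 h (vertical) at 0, 6 and 16 h (horizontal) for each tested gene of 3 cell cycle lists (thin lines) with the median (thick). The S phase median is already at -0.98 at 6 h, while the mitosis median is at 0.25 at 6 h and reaches -1.12 at 16 h.

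Promoters of 4 mitosis genes and of the S phase gene Mcm5 are printed to show 2 elements known from cell cycle promoters. They are the CHR (TTTGAA) and the reverse CCAAT box (ATTGG). Each line is the 250 bases before the gene's start in RefSeq's GRCm38.p6, 5′ to 3′ on the gene's strand, and capitals mark every match to TTTGAA or ATTGG on either strand, where adjoining or overlapping matches run together. The windows are Ccnb2 (chr9:70421555-70421804, minus strand), Cdk1 (chr10:69352913-69353162, minus strand), Top2a (chr11:99024190-99024439, minus strand), Ube2c (chr2:164769679-164769928, plus strand) and Mcm5 (chr8:75109259-75109508, plus strand).
Ccnb2: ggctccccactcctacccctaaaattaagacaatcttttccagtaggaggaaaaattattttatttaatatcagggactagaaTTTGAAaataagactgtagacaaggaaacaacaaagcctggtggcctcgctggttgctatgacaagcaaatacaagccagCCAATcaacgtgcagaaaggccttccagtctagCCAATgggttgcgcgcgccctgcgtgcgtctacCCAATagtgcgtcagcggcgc
Cdk1: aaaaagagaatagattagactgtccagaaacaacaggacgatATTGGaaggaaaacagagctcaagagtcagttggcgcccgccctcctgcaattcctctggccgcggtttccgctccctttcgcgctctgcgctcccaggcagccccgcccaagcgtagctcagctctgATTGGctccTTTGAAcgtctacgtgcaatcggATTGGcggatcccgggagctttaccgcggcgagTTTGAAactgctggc
Top2a: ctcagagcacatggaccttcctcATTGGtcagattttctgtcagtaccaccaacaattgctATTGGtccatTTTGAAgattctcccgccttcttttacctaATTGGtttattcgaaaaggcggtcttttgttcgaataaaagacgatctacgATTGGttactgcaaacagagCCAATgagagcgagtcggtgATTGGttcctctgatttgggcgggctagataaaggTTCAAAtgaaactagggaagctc
Ube2c: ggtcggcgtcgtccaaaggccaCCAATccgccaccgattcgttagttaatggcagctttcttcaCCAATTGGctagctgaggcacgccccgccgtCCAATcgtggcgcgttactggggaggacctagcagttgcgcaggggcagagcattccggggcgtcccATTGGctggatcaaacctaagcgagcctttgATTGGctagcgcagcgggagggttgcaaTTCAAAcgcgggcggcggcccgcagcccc
Mcm5: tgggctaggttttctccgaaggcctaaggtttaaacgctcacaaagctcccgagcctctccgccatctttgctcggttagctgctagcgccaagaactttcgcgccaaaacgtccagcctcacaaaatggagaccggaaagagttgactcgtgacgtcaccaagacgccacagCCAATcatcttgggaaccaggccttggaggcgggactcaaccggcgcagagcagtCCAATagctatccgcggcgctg
The 4 mitosis promoters hold TTTGAA or its reverse complement, and the Mcm5 window does not. These genes were picked for display, so only the list shares below compare mitosis with S phase genes.

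Counted over windows that also include the first 50 bases after the start, TTTGAA was found in 20 of the 29 mitosis genes with a promoter in the table (69%). It was found in 3 of 31 S phase genes (9.68%), in 18.1% of all 27025 promoters and in 12.2% of those of tested genes. ATTGG was found in 21 of 29 mitosis genes (72.4%) and 18 of 31 S phase genes (58.1%), against 37.9% of all promoters and 38.9% of those of tested genes. Both strands were searched, and such a match is a description of letters, not of a bound site. Ccnb2, which encodes cyclin B2, fell by 1.26, and Ube2c, a ubiquitin-conjugating enzyme gene of mitotic exit, by 1.12.

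The D cyclins and cell cycle inhibitors were mixed, with 8 of 22 higher and 11 lower. These shares, 36.4% and 50%, stand beside 28.4% and 30% over all genes tested. Ccnd2, a cyclin D gene induced by growth signals, fell from 131, 126 and 127 CPM to 35.1, 35.9 and 33.8 CPM. The 3 libraries at 16 h were each well below those at 0 h (-1.87, SE 0.051). Ccnd3 fell by 1.18, Ccnd1 by only 0.17, and Cdkn2b, the gene of the inhibitor p15, rose by 2.58 (SE 0.41).

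Immediate-early genes, which respond to signals within minutes and need no new protein, were high at 0 h and low at both later times. Of 27 tested of 28 listed, 22 fell, 3 rose and 2 were not called, with a median of -1.19. At 6 h the counts were 22 lower and 4 higher (median -0.91), and from 6 to 16 h only 7 were lower and 3 higher (median -0.10). Fosb (ENSMUSG00000003545.3, chr7:19302696-19310051, minus strand; coordinates are mm10, from GENCODE M21), a subunit of the transcription factor AP-1, had 164, 159.6 and 169 CPM at 0 h. It had 1.63, 1.47 and 0.739 CPM at 6 h and 0.643, 1.15 and 0.8702 CPM at 16 h. Its 3 libraries at 0 h stood above every later vehicle library, and the fold change of -7.51 (SE 0.11, edgeR adjusted p = 1.94e-55) was the lowest among genes of at least 10 CPM.

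Fos, its AP-1 relative, fell from 59.5, 52.2 and 51.6 CPM to 3.3995, 4.34 and 4.003 CPM (-3.79, SE 0.15), with no overlap. The stress-responsive Atf3 fell from 81.2, 73.4 and 75.97 CPM to 7.81, 6.21 and 8.09 CPM, and Nr4a1, an orphan nuclear receptor gene, from 75.99, 64.8 and 71.5 CPM to 9.46, 8.87 and 8.79 CPM. Their fold changes were -3.38 (SE 0.12) and -2.97 (SE 0.082). Nr4a2 fell by 3.53, Egr1 by 2.39, Jun by 1.9 and Myc by 1.82. The 3 members that rose were Gadd45b (1.33), Btg2 (0.8), an antiproliferative gene, and Junb (0.14). In untreated cells at 0 h Fosb stood at 172, 169.5 and 151 CPM, so its high level at 0 h was present without vehicle.

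Feedback genes of receptor tyrosine kinase and cytokine receptor signalling, which are switched on by these pathways, were mostly lower. Many of them restrain the pathways, but the list also holds other targets such as Etv4, Etv5 and Pim2. Of 20 tested of 21 listed, 14 fell and 4 rose (median -0.73), and 15 were lower at 6 h (median -0.82). The 4 that rose were Socs2 (4.51) and Cish (1.12), inhibitors of cytokine receptor signalling, Pim2, a survival kinase gene (0.58), and Dusp7, a phosphatase gene (0.31). Dusp6, the ERK phosphatase gene, went from 74.3, 70.2 and 68.1 CPM to 12.7, 13.7 and 14.2 CPM (-2.39, SE 0.074). Etv5, an ERK-induced transcription factor gene, fell by 3.15 and Spred2, an inhibitor of RAS signalling, by 3.06. Etv4 went from 42 counts over the 3 libraries at 0 h to 0 at 16 h, at least 12.8-fold lower, and Spry4 from 22 to 0, at least 6.69-fold lower. Both bounds take 3 counts over the group for the group at 0 and cover counting error only.

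Genes of the clock and of glucocorticoid response moved in the same period. Per1, a clock repressor gene that glucocorticoids also induce, fell from 160.5, 153 and 158 CPM to 39.97, 34.7 and 38.6 CPM, and Per2 from 20.1, 19.7 and 22.99 CPM to 3.22, 2.48 and 3.13 CPM. Fold changes were -2.06 (SE 0.051) and -2.83 (SE 0.13), and the groups of both genes were far apart. Of 20 clock genes tested 10 fell and 6 rose (median -0.33), and of 14 glucocorticoid targets 9 fell and 2 rose (median -0.50). Ddit4, a target that restrains mTOR, was one of those that rose (1.5, SE 0.11), and Zbtb16 was the other (2.04). Harvest times of day are not in the labels, and the part of the time of day in these values was not tested.

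**Figure D3:**
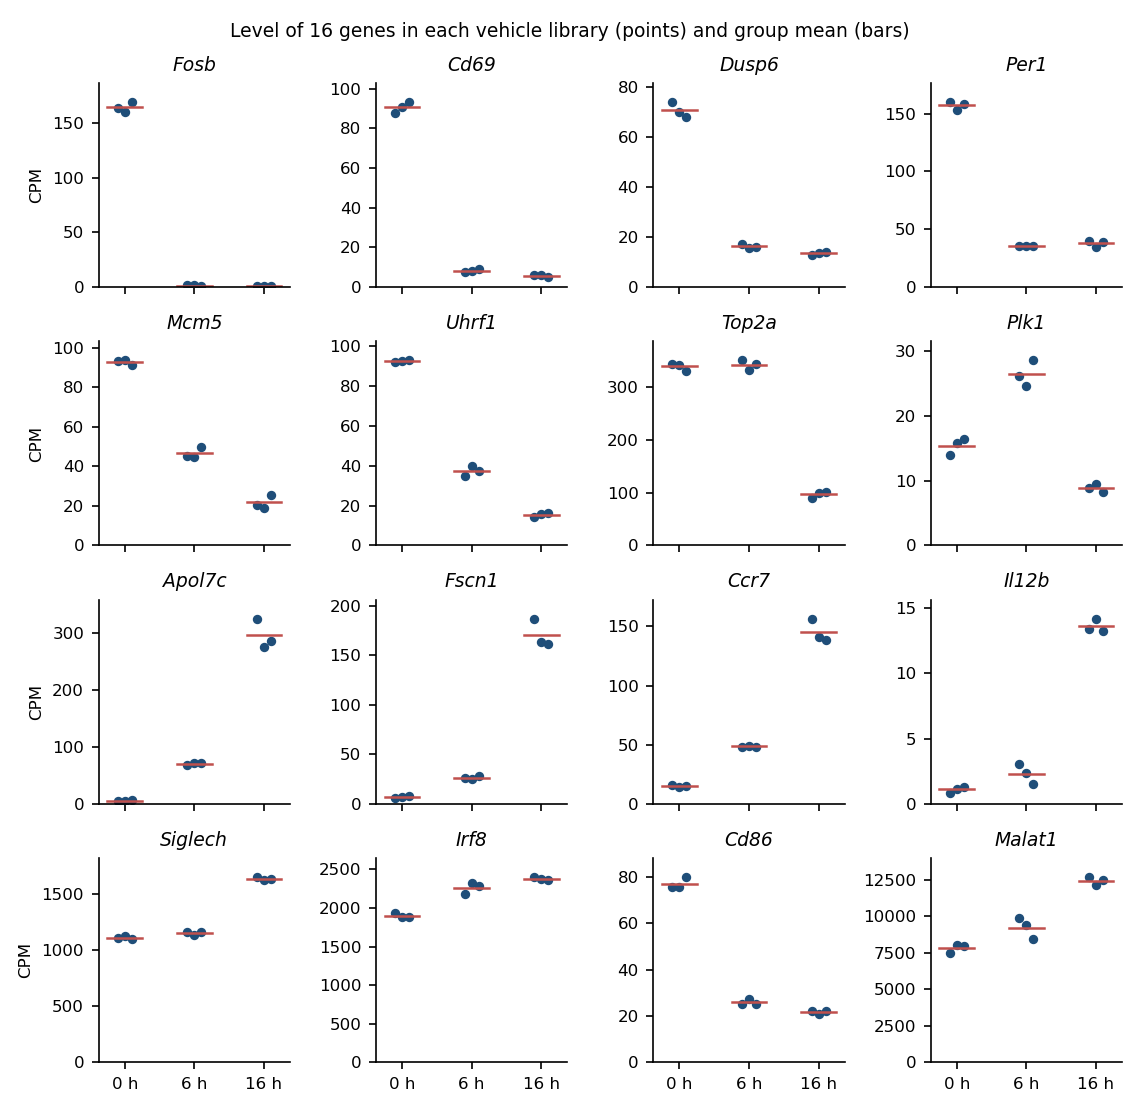
CPM (vertical, linear, from 0) of 16 genes in each of the 3 vehicle libraries at 0, 6 and 16 h (points), with the group mean (bars). Fosb, Cd69, Dusp6, Per1 and Cd86 are low from 6 h on, Top2a and Plk1 are low only at 16 h, and Apol7c, Fscn1, Ccr7 and Il12b are highest at 16 h.

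Of 30 listed maturation and co-stimulation genes 29 were tested, 21 of those rose and 4 fell (median 0.94), and 13 of them rose at least 2-fold. The list was drawn up knowing that some of these genes rise with imiquimod in the series. Fscn1 (ENSMUSG00000029581.14, chr5:142960343-142973185, plus strand), the fascin gene, went from 6.12, 6.91 and 7.66 CPM at 0 h to 25.7, 25.7 and 28.1 CPM at 6 h and 187, 164 and 162 CPM at 16 h. Each time point lay wholly above the one before, and the fold change from 0 to 16 h was 4.63 (SE 0.069, edgeR adjusted p = 1.03e-58). Ccr7 (ENSMUSG00000037944.8, chr11:99144196-99155077, minus strand), the receptor that guides mature dendritic cells to lymph nodes, went from 15.98, 14.5 and 14.996 CPM to 48.3, 49.3 and 48.4 CPM and 157, 142 and 139 CPM. The steps did not overlap here either (3.26, SE 0.057).

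Ccl22, a chemokine gene that attracts regulatory T cells, was at 6.76, 4.603 and 3.54 CPM at 0 h, 68.5, 64.01 and 70.1 CPM at 6 h and 79.5, 65.7 and 71.7 CPM at 16 h, so nearly all of its rise of 3.85 (SE 0.1) lay before 6 h. Socs2, which is also in the feedback list above, rose from 1.11, 0.7398 and 1.48 CPM to 27.2, 22.97 and 26.5 CPM (4.51, SE 0.15). The 3 values at 0 h rest on few counts. Tnfrsf9, which encodes the co-stimulatory receptor 4-1BB, rose by 3.85 (SE 0.27), Cacnb3, a calcium channel subunit gene, by 3.16, and Traf1, a TNF receptor adaptor gene, by 2.19. Cd40, the receptor for T cell help, went from 5.72, 6.74 and 5.11 CPM to 15.4, 17.8 and 16.4 CPM (1.5, SE 0.10), and Relb, an NF-kappaB subunit gene of mature dendritic cells, rose by 1.24.

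Co-stimulatory genes did not move as one. Cd86, a ligand of the T cell receptor CD28, fell from 75.8, 75.7 and 80.1 CPM to 22.3, 21.1 and 22.4 CPM. All 3 libraries at 16 h were below all 3 at 0 h (-1.82, SE 0.06, edgeR adjusted p = 7.62e-42). Its partner ligand Cd80 rose by 0.45 (SE 0.094) and the maturation marker Cd83 by 0.26, while Cd274, the PD-L1 gene, was at 0.08 and not called. Cd69, an early activation antigen, fell from 87.6, 90.9 and 93.4 CPM to 7.39, 8.17 and 9.03 CPM by 6 h and 6.25, 5.85 and 5.13 CPM by 16 h, a fold change of -3.98 (SE 0.078). The other 2 members that fell were Tnfsf9, the 4-1BB ligand gene (-1.18), and Cd48 (-0.45).

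The highest fold changes among all genes of at least 10 CPM included several outside the maturation list. Apol7c (ENSMUSG00000044309.8, chr15:77524852-77533316, minus strand), of the apolipoprotein L family, had 5.56, 5.34 and 6.43 CPM at 0 h, 68.4, 71.95 and 71.2 CPM at 6 h and 326, 277 and 286 CPM at 16 h. Its groups were separate at every step, and the fold change of 5.68 (SE 0.067, edgeR adjusted p = 1.73e-63) headed the ranked genes that rose. Of its 75-base windows 14.2% also occur in other genes, Apol7a, Apol7b and Apol7e among them, so reads may be shared. Slco5a1, an orphan transporter gene, rose by 4.42, Synpo2, an actin-binding protein gene, by 4.39, Adcy6, an adenylyl cyclase gene, by 4.3, Mmp25, a membrane-anchored metalloproteinase gene, by 4.28, and Lad1 by 4.04. Slc4a8, a bicarbonate transporter gene, was at -0.01 at 6 h and rose by 3.75 (SE 0.14) by 16 h. Anxa3, an annexin gene, rose by 3.6 and Ankrd33b by 3.48.

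Among the genes that fell most, besides those above, were Lmna, the lamin A/C gene (-3.63, SE 0.16), and Alox5, the 5-lipoxygenase gene of leukotriene synthesis (-3.56, SE 0.16). Il1r2, the decoy receptor for interleukin 1, fell from 74.6, 76.5 and 76.7 CPM to 7.99, 8.42 and 10.2 CPM (-3.09). The exchange factor gene Rasgef1b fell by 3.04, the adaptor gene Cass4 by 3.02 and the endocytic adaptor gene Dab2 by 2.86.

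**Figure D4:**
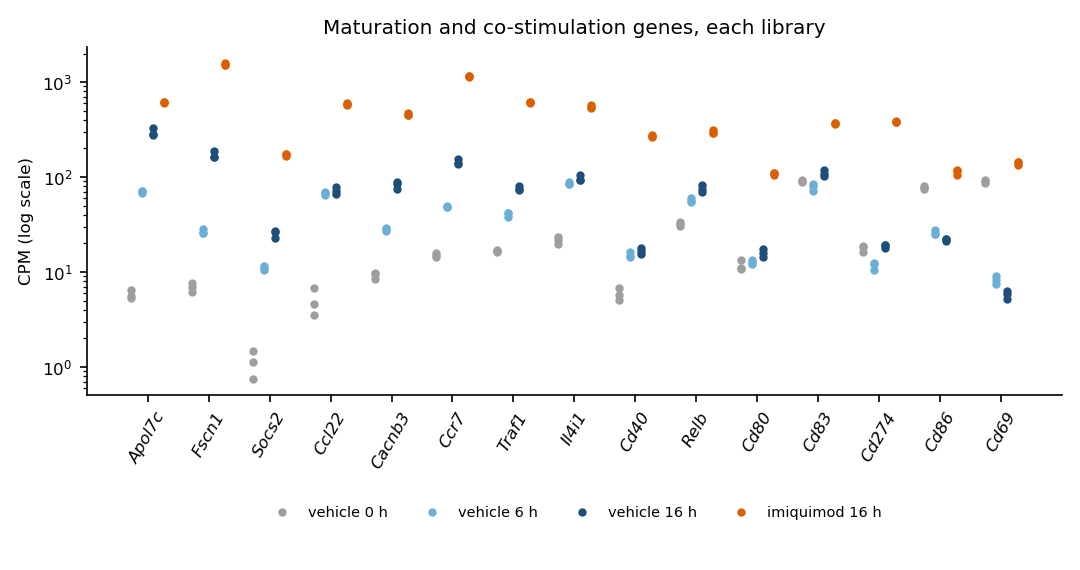
CPM on a log axis for 15 maturation and co-stimulation genes and neighbours in each library of vehicle at 0, 6 and 16 h and of imiquimod at 16 h. Fscn1 and Ccr7 climb at each vehicle time, whereas Cd86 and Cd69 are lower at 6 and 16 h than at 0 h.

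Cytokine genes split evenly, with 9 of 27 inflammatory cytokine and chemokine genes higher, 9 lower and 9 not called among 33 listed (median -0.09). The share was 33.3% each way, near the 28.4% higher and 30% lower over all genes tested. Il12b, which encodes the p40 subunit of interleukins 12 and 23, rose from 0.874, 1.15 and 1.32 CPM to 13.4, 14.2 and 13.2 CPM with no overlap (3.6, SE 0.16). Its partner gene for interleukin 12, Il12a, fell by 1.89 (SE 0.13), from 16.6 to 4.44 CPM on average. Ccl5 rose by 3.72 (SE 0.14) and Il15, a cytokine for NK and memory T cells, by 1.73. Ccl4 and Ccl3, inflammatory chemokine genes, fell by 4.77 and 2.85, and Tnf, the tumour necrosis factor gene, by 2.01 (SE 0.17). Il10 went from 17 counts at 0 h to 3 at 16 h, a ratio of 5.17 (95% counting interval 1.5 to 27.5), and it was not called without vehicle 16 h replicate 2 (fold change -1.71) or replicate 3 (-1.69).

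Of the 20 listed genes of type I and III interferons 0 passed the filter, and 19 of them had 0 counts in all 6 libraries. Ifnk was the exception, with 7 counts at 0 h and 1 at 16 h. Interferon-stimulated genes were mixed, with 21 of 64 higher and 15 lower (median 0.11). These shares, 32.8% and 23.4%, lie near the 28.4% higher and 30% lower over all genes tested. Those that fell most were Ifitm1 (28.5, 27.7 and 25.7 CPM at 0 h and 5.42, 4.52 and 4.87 CPM at 16 h, fold change -2.47) and Ifitm3 (-1.94), which encode membrane proteins that block virus entry, among genes above 10 CPM at 0 h. Isg15, a ubiquitin-like interferon-induced gene, was at -0.01 and not called, and Irf7, the factor behind the interferon response of pDCs, was at 0.1 and not called. Nlrc5, the activator of MHC class I genes, was at 0.71 (SE 0.042) and called.

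Sensor genes were mixed. In the Toll-like receptor pathway 12 of 33 tested genes rose and 7 fell (median 0.08). That is 36.4% and 21.2%, beside 28.4% and 30% over all genes tested. Tlr7, the receptor that imiquimod engages, went from 213, 225 and 221 CPM to 270.2, 269 and 278 CPM (0.31, SE 0.054), and Tlr9, the DNA receptor, from 217, 211 and 209 CPM to 219, 217 and 224 CPM (0.05, SE 0.037, edgeR adjusted p = 0.236). The Tlr9 groups were not separated by the test. Tlr2, for bacterial lipoproteins, fell by 1.19, its co-receptor Cd14 by 1.48, and Tlr4 stood at -0.13 without being called. NF-kappaB target and feedback genes were 13 higher and 11 lower of 32 (40.6% and 34.4%).

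Genes that define pDCs showed small differences. Of 32 listed and tested, 13 rose, 9 fell and 10 were not called (median 0.07), and only Clec10a moved 2-fold (-1.31). Their summed level was 15285 to 15330 CPM at 0 h and 17038 to 17119 CPM at 16 h. Siglech (ENSMUSG00000051504.18, chr7:55768178-55778925, plus strand), the sialic acid-binding receptor that marks mouse pDCs, went from 1105, 1122 and 1097 CPM to 1650.0, 1623 and 1633 CPM, and no library of 16 h overlapped those of 0 h (0.56, SE 0.029). The pDC transcription factor genes Bcl11a, Spib and Irf8 rose by 0.65, 0.55 and 0.32, and Tcf4, the master regulator of the lineage, by 0.12 (SE 0.034). Tcf4 was not called when libraries were scaled by their totals (0.07), or without vehicle 0 h replicate 1 (0.09).

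At 6 h 15 members of this list were lower and 5 higher than at 0 h (median -0.13), and with any 6 h library left out 14 or 15 were lower and 5 or 6 higher. From 6 to 16 h 22 were higher and 2 lower (median 0.25). Ccr9, a homing receptor gene of pDCs, shows it with 1009, 1025 and 1023 CPM at 0 h, 666, 598 and 648 CPM at 6 h and 1044, 1032 and 1052 CPM at 16 h. Its level at 6 h was below every library of the other times, and 16 h against 0 h gave 0.03 (SE 0.034, edgeR adjusted p = 0.407). Of the windows of Ccr9 19.3% also occur in other gene models, so reads may be shared.

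Markers of other cells were examined because enrichment was not complete. Some are also in the pDC list above. These are Irf8 and Cadm1 among type 1 dendritic cell markers, Clec10a among type 2 markers and Ly6c2 among monocyte markers. Sums over those lists therefore include genes of pDCs and do not measure other cells alone. Conventional type 1 dendritic cell (cDC1) markers summed to 3993 to 4108 CPM at 0 h and 4021 to 4046 CPM at 16 h, with 5 of 16 higher and 10 lower. Xcr1, the chemokine receptor gene that defines cDC1, fell from 20.7, 22.3 and 20.02 CPM to 4.96, 5.05 and 6.44 CPM (-1.93), whereas Clec9a, their dead-cell receptor gene, rose by 0.15 and Batf3, their transcription factor gene, by 1.59 (SE 0.15). Conventional type 2 (cDC2) markers summed to 1588 to 1626 CPM and then 1327 to 1359 CPM, with 3 of 16 higher and 8 lower. Irf4, a transcription factor gene of that type, fell by 1.29, Itgam, the CD11b gene, by 1.68, and the adhesion gene Esam rose from 0.0795, 0.247 and 0.3296 to 2.94, 1.24 and 0.957 CPM. Of the windows of Itgam 65.2% also occur in another gene model, so its counts are uncertain.

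Of 15 genes shared by conventional dendritic cells, 6 rose and 7 fell, and Zbtb46, which separates these cells from pDCs, stood at -0.02 and was not called. Monocyte and macrophage markers summed to 2229.9 to 2245 CPM at 0 h and 2283 to 2368 CPM at 16 h, with 1 of 14 tested higher and 9 lower. Lyz2, the lysozyme gene of these cells, fell from 262 to 148 CPM (-0.82) and Ccr2 was the member that rose (0.27). B cell markers summed to 1207 to 1219.9 CPM and then 1098 to 1171 CPM (4 of 15 higher, 2 lower). Those shares, 26.7% and 13.3%, stand beside 28.4% and 30% over all genes tested. T and NK cell markers summed to 319 to 333 CPM and then 277 to 283 CPM (1 of 6 higher, 3 lower), and progenitor markers to 545 to 565 CPM and then 458 to 469 CPM (2 of 9 higher, 4 lower).

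Neutrophil, basophil and mast cell markers summed to at most 6.34 CPM and erythroid and platelet markers to at most 6.68 CPM in any of the 6 libraries. No read was counted for 5 of the 20 former markers at 0 h and 4 at 16 h, nor for 7 and 9 of the 15 latter ones. The part of other cell types in the falls of immediate-early, cytokine and cycle genes was not tested. Nor was their part in the rises of maturation and cytokine genes and of Apol7c.

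Genes for antigen presentation differed by class. Of 18 MHC class II genes 11 fell and 5 rose (median -0.15), and of 24 class I genes 12 rose and 5 fell (median 0.07). H2-Ab1, a class II chain gene, fell from 807, 758 and 742 CPM to 558, 517 and 547 CPM, without overlap (-0.51, SE 0.036). H2-DMb1, of the peptide-loading factor, fell by 0.74, while Ciita, which switches class II genes on, rose by 0.33 and H2-Eb2 by 2.61. B2m, the class I light chain gene, rose by 0.16.

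Biosynthetic genes were mostly lower. Of 22 genes of the unfolded protein and integrated stress response 19 fell and 1 rose (median -0.46), and 19 were already lower at 6 h. Hspa5, the endoplasmic reticulum chaperone BiP, went from 599, 577 and 585 CPM to 379, 385 and 387 CPM (-0.61, SE 0.041), and Sesn2, a stress-induced inhibitor of mTORC1, fell by 1.16. Amino acid transport and tRNA synthetase genes fell in 23 of 27 (median -0.47), among them Slc7a5, which encodes the leucine transporter chain LAT1. It went from 150.4, 139 and 137 CPM to 49.2, 50.2 and 50.03 CPM (-1.51), with its partner chain gene Slc3a2 at -1.35. Slc7a11, the cystine transporter gene, went against this list and rose by 2.46 (SE 0.19).

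Ribosome biogenesis genes fell in 26 of 30 (median -0.41), with Nop58, a snoRNA particle core gene, at -1.05 and Rrp12 at -1.26. Cytosolic ribosomal protein genes moved less, with 16 of 40 lower, 1 higher and 23 not called (median -0.07). Nuclear-encoded respiratory chain genes fell in 28 of 34 and rose in 0 (median -0.29). At 6 h 10 of the 34 were lower and 0 higher, but without vehicle 6 h replicate 1 it was 7 lower and 3 higher, and without replicate 2 it was 14 and 0. Of 13 mitochondrially encoded mRNAs 7 were tested, and 1 of these was called, mt-Nd6 (0.62). Mitochondrial rRNA went from 5.72% to 6.04% of counts at 0 h to 9.27% to 9.81% at 16 h.

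Lipid genes followed the same direction. Of 24 cholesterol synthesis genes 20 fell and 1 rose (median -0.39), with Insig1, a sterol sensor gene, going from 233, 232 and 228 CPM to 147, 147 and 142 CPM (-0.67, SE 0.036). Its libraries did not overlap between the times. Fdps, the farnesyl diphosphate synthase gene, fell by 0.91, and 23.5% of its windows also occur in other genes. The reverse CCAAT box was found in 15 of the 17 cholesterol genes with a promoter in the table (88.2%) and 16 of 21 stress response genes (76.2%). It was in 38.9% of promoters of tested genes. Fatty acid synthesis, amino acid and tyrosine kinase feedback genes had it in 63.6%, 63.2% and 62.5%. Immediate-early and ribosome biogenesis genes were near the background, at 39.1% and 38.5%. Maturation, actin and respiratory chain genes were below it, at 27.8%, 27.3% and 20.8%. Fatty acid synthesis genes fell in 11 of 14 (median -0.45), with the desaturase gene Scd2 at -1.17 and Scd1 at -0.99. Glycolysis genes fell in 15 of 31 and rose in 5 (median -0.08). Pfkp, a phosphofructokinase gene, fell by 1.3 and Pfkfb3, which makes its activator, rose by 1.29.

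Survival genes were divided. Of 31 apoptosis regulators 14 rose and 8 fell, and of 22 p53 targets 11 rose and 3 fell (median 0.25). Bcl2, a survival gene, fell from 113, 115 and 118 CPM to 33.8, 32.8 and 38.3 CPM. The libraries of the times stood apart (-1.72, SE 0.054). The pro-death genes Pmaip1 and Bcl2l11 fell by 1.33 and 0.95, and Fas, a death receptor gene, rose by 1.81. Bcl2a1a, Bcl2a1b and Bcl2a1d rose, but share 55.2% to 68.4% of their windows with other genes, so reads could not be assigned to 1 copy.

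Actin and adhesion genes fell in 29 of 37 (median -0.28). Vim, the vimentin gene, went from 1232, 1212 and 1195 CPM to 526, 529.7 and 520.1 CPM (-1.21), and Cd44, a hyaluronan receptor gene, from 791, 873 and 850.4 CPM to 341, 370.0 and 365 CPM (-1.22). Both were lower in every library at 16 h. Actb, the beta-actin gene, fell by 0.2 (SE 0.034) and Lcp1, an actin-bundling gene of blood cells, by 0.57, whereas Actn1, an alpha-actinin gene, rose by 1.63, as Fscn1 did. Growth factor and cytokine receptors fell in 18 of 29 and chemokine receptor and homing genes in 13 of 24, with S1pr3 at -2.52 and Gpr183, an oxysterol receptor gene, at -1.13. TGF-beta pathway genes fell in 12 of 21 (median -0.37), with the inhibitor gene Smad7 at -0.95. Notch pathway genes rose in 8 of 19 and fell in 3 (median 0.21), and the ligand gene Jag1 rose from 0.954, 0.7398 and 0.742 CPM to 9.46, 7.005 and 8.01 CPM (3.31, SE 0.22).

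Foxo targets fell in 12 of 21 and rose in 5. Arrdc3, an arrestin-like gene, fell from 309, 313 and 297 CPM to 53.7, 51.1 and 56.04 CPM and Txnip, which curbs glucose uptake, from 715, 705 and 685 CPM to 298, 305 and 303 CPM. Their fold changes were -2.51 (SE 0.044) and -1.22 (SE 0.035), again with no overlap. Among immune checkpoint and regulatory genes 8 of 24 rose and 9 fell (33.3% and 37.5%), near the 28.4% and 30% over all genes tested. Ido2 and Arg2, which encode enzymes that degrade tryptophan and arginine, rose by 4.53 (SE 0.44) and 5.5 (SE 0.37). At 0 h these genes had means of only 0.136 and 0.1097 CPM. Of the windows of Arg2 17.9% occur in other genes, Vti1b among them.

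**Figure D5:**
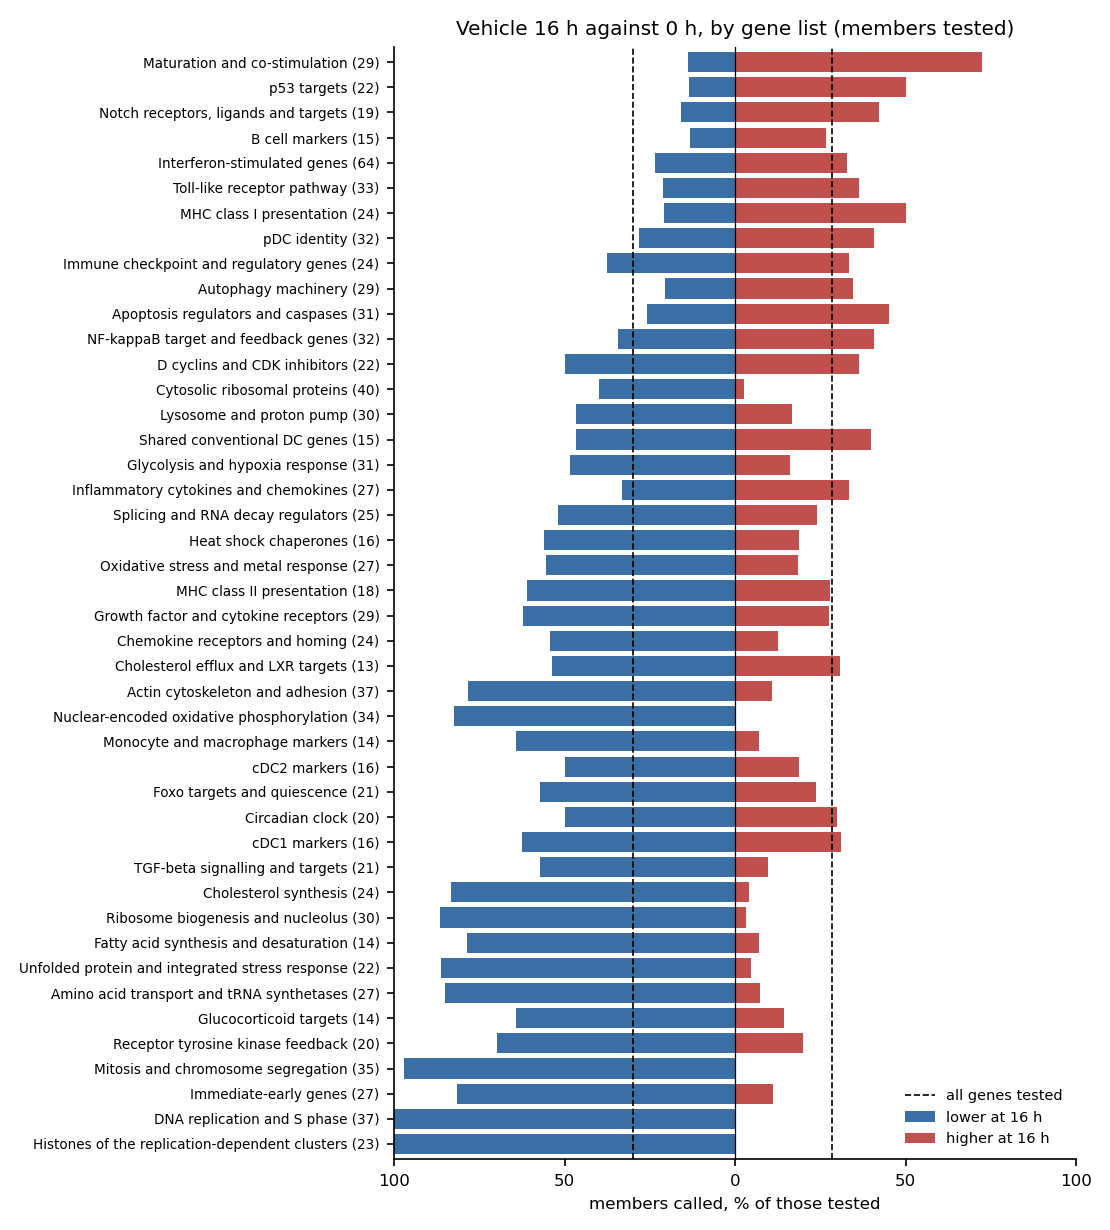
Percent of tested members of each list with at least 10 tested genes (number in brackets) that were lower (left, blue) or higher (right, red) at 16 h, ordered by median log2 fold change. Dashed lines give the share over all genes tested, 28.4% higher and 30% lower, and the S phase and histone bars reach 100% lower.

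Several long non-coding RNA classes leaned upward, but not all. Of 352 lincRNA genes tested 38.4% rose and 11.1% fell (median 0.38), and of 349 antisense genes 29.8% rose and 7.45% fell (median 0.30). Over all genes tested 28.4% rose and 30% fell, so antisense genes differed mainly in the share that fell. Of 176 genes annotated as sense-intronic 19.3% rose and 21.6% fell (median 0.02). Of 11786 protein-coding genes 29.4% rose and 34.2% fell (median -0.02). Malat1, an abundant RNA kept in the nucleus, went from 7462, 8065 and 7944 CPM to 12693, 12135 and 12460.3 CPM, with no overlap (0.67, SE 0.04). The lincRNA share of all counts was 5.64% to 6.14% at 0 h and 8.27% to 8.85% at 16 h, but most of these counts belong to Gm26917 and Gm42418, which are annotated as lincRNA and counted above among rRNA-like genes. Of the counts outside the rRNA and rRNA-like genes, lincRNA genes held 1.28% to 1.36% at 0 h and 1.97% to 2.05% at 16 h, and protein-coding genes 95.9% to 96.1% and then 95.15% to 95.3%. Among lncRNA genes Gm37306 rose by 1.76, Mypopos by 1.35 and Gm16638 by 1.99, the last with 39.8% of its windows shared with Tmc3. Mir22hg, the host of a microRNA, fell by 1.45, AI506816 by 1.22 and Gm4258 by 1.19. Whether the strand was used in counting is not given in the sources used here, so antisense genes and their partners may share reads.

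Genes were also ranked by change in CPM, which favours long and abundant transcripts, with the same classes of gene left out. Malat1, Siglech and Irf8 rose most together with Psap, a lysosomal protein gene (0.12), Ogt, a sugar transferase gene (0.84), Ddx17, an RNA helicase gene (0.57), Plxnc1, a semaphorin receptor gene (0.81), and Macf1, a cytoskeletal linker gene (0.3). Psap was not called when libraries were scaled by their totals (0.07). Besides Vim, Actb, Cd44, Txnip and Lcp1, those that fell most were Dennd4a (-2.05), Ptprc, which encodes CD45 and B220 (-0.48), and H3f3b, a replication-independent histone gene (-1.09).

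Imiquimod at 16 h gives a second reading of the vehicle 16 h libraries, which both comparisons share. Against vehicle at 16 h it held 5818 genes higher (39.1%) and 5672 lower (38.1%). Of the 37 S phase genes 36 were higher with imiquimod and 0 lower (median 2.56), and Ccnd2 stood at 2087, 2005 and 2064 CPM, above its libraries at vehicle 0 h as well. Of the 35 mitosis genes 28 were higher and 3 lower (median 0.93). Immediate-early genes were 16 higher and 8 lower of 27 (median 0.61), and feedback genes of receptor tyrosine kinases 13 higher and 7 lower of 20 (median 1.66). Maturation genes were 28 higher and 1 lower of 29 (median 2.5), with Fscn1 at 1525, 1519.9 and 1597 CPM and Ccr7 at 1158, 1119 and 1155 CPM, both far above vehicle at 16 h. The maturation list was drawn up knowing that some members rise with imiquimod here, so this count adds no support. Slco5a1 had 11.8, 14.6 and 14.7 CPM with imiquimod and 47.2, 40.2 and 41.9 CPM with vehicle at 16 h, the opposite order. Genes of pDC identity were 6 higher and 22 lower of 32 (median -0.91), and interferon-stimulated genes 63 higher and 0 lower of 64 (median 3.37).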

How the data were processed

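Directional paired-end libraries were made from total RNA after rRNA depletion, per the labels' protocols. The authors deposited unnormalized read counts for each gene, with STAR and mm10 named in the submitters' processing notes. The aligner version, counter, strand setting, handling of reads with several matches and annotation release are not given in the sources used here. Of 54532 identifiers 97.6% matched GENCODE M21, which gave the coordinates.

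One model of all 18 libraries was fitted with edgeR 4.0.16 under R 4.3.3, using filterByExpr on the groups (minimum count 10), TMM scaling, robust quasi-likelihood dispersions and Benjamini-Hochberg adjustment over 14876 genes at 0.05. The common dispersion was 0.000951, a coefficient of variation of 3.08%. SE is the absolute log2 fold change divided by the square root of F, which understates the error of large changes at low counts. The fit was also run on simulated data with the same dispersion for all genes and libraries and few genes changed. Those settings differ from these data, so that run cannot test the scaling or the wider spread at 6 h. DESeq2 1.42.0 was an alternative. All counting intervals cover counting error only.

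The genes and lists were chosen with earlier results of these data known. Named genes are the 15 highest and 15 lowest fold changes at a mean of at least 10 CPM with separate groups, the 8 largest CPM changes each way, up to 4 members a list, a panel of 40 genes and 3 lncRNA genes each way, and not all are printed. The CPM changes were held to the same conditions. Both rankings left out gene models, clone names, pseudogenes, small RNAs, rRNAs and mitochondrial genes. Some genes that this rule picks are not reported here. B2m, Bcl2l11, Btg2, Ccnb2, Ccr2, Cd48, Cd80, Cdk1, Cish, Clec9a, Dusp6, Dusp7, Gadd45b, Hspa5, Ifitm3, Il12a, Il15, Irf4, Junb, Lyz2, Mcm5, Pim2, Plk1, Tlr4, Tnfsf9 and Ube2c were added after their values were seen. Windows of 75 bases were compared across GENCODE M21 transcripts. Besides the genes remarked on above, Ccnd1 (20.6%), Cass4 (19.6%), Etv5 (18.7%), H2-DMb1 (15.8%) and Txnip (13.8%), among others, share windows with other genes. Reads of genes without a remark may thus also be shared. Promoters are from RefSeq (GRCm38.p6), searched for 9 motifs, of which 2 are printed. No library pairs of the same replicate number correlated in their deviations.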

Additional observations from a re-analysis of the deposited data

How the results depend on the processing

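Over the alternatives run (other scalings, filters, fits and tools), 3679 to 4468 genes were higher and 4017 to 5036 lower at 16 h than at 0 h in vehicle, and with any of the 6 libraries left out 3858 to 3936 and 4171 to 4255. At least 2-fold differences ran from 755 to 1029 higher and 882 to 1036 lower, and with a library left out from 790 to 833 and 907 to 922. None of these counts moved by 1.5 times. With a replicate block 4191 were higher and 4442 lower. Deviations from the group mean did not correlate between same-numbered libraries of 0 and 16 h (r = -0.0058, -0.0099 and 0.0072). Replicates differed little beyond counting noise, so these values cannot decide whether libraries were paired. The block moved no count of calls by 1.5 times. Between vehicle and untreated cells at 0 h, where 0 genes were called, 1 was higher with DESeq2 size factors and 1 with library totals. With no filter 4 were higher and 1 lower, with the other groups left out of the fit 4 and 1, and with single libraries left out 0 to 4 and 0 to 3. The cause was not tested. Uncalled genes changed sign in some settings: Ccr9 (-0.0161) and Ly6d (-0.0405) with library totals, and over single libraries left out Isg15 (-0.419 to 0.2155), Ly6d (-0.0142 to 0.0308), Zbtb46 (-0.0527 to 0.0218), Cd8a (-0.0675 to 0.1311) and Irf7 (-0.0771 to 0.1897). Top2a (-0.0034 to 0.0370) and Slc4a8 (-0.1016 to 0.0588), not called at 6 h against 0 h, changed sign when a 6 h library was left out. List medians changed sign for D cyclins and inhibitors (-0.27 to 0.04), B cell markers (-0.02 to 0.17) and NF-kappaB genes (-0.03 to 0.07). Other medians near 0 also moved by over 1.5 times, among them those of interferon-stimulated genes (0.0112 to 0.1637), pDC identity (0.018 to 0.0777), MHC class I (0.0245 to 0.088), the Toll-like receptor pathway (0.0245 to 0.1087), glycolysis (-0.205 to -0.0558), inflammatory cytokines (-0.1405 to 0) and cytosolic ribosomal proteins (-0.1185 to -0.0576). Those farther from 0 were cDC2 markers (-0.4837 to -0.2839) and Notch genes (0.1061 to 0.2887). Library totals moved the median over all genes to -0.05. Depth limits genes of few counts, such as Il10 and Etv4.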
